A study of Mus musculus with 11 samples.

Results

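The miR-29 family comprises the miRNAs miR-29a, miR-29b and miR-29c. Its members were taken as every mature miRNA, from either arm of a hairpin, whose name in both small RNA tables carries one of these stems, without regard to its level. This gave 7 of the 1096 mature miRNAs, of which 3 come from the 3p arm (miR-29a-3p, miR-29b-3p and miR-29c-3p) and the others from the 5p arm. All 7 members had reads in both libraries.

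Small RNAs were measured in spermatogonial progenitor cells (SPCs), which are Thy1-positive germ cells of the neonatal mouse testis kept in long-term culture. Control SPCs were transduced with a lentiviral pLKO.1 vector control (shVector), and Mov10 knockdown SPCs with a pLKO.1 plasmid expressing an shRNA against Mov10. The study's methods name the construct shMov10-832 for the RNA-seq libraries and do not name it again for the small RNA libraries. MOV10 is an RNA helicase that associates with Argonaute proteins, and the comparison asks how the level of miRNAs differed when Mov10 was depleted. Each group was 1 small RNA library, so no value has a replicate error, and the other 9 of the 11 samples of the series, made for mRNA and for RNA bound by MOV10, were not analysed here. Both groups shared the strain (C57BL/6 in the labels, B6;129S-Gt(Rosa)26Sor/J in the study's methods), the age of the animals (postnatal day 6 in the labels) and a feeder layer of mitotically inactivated STO mouse embryonic fibroblasts. The study's methods name 1 knockdown construct for sequencing, and the sources used here do not say whether shVector carries a hairpin. The sources used here do not say how completely SPCs were separated from the feeder cells, nor whether triplicate cultures were pooled in each library. Mov10 mRNA is not read in small RNA libraries, so its depletion was not checked here.

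A miRNA is cut from a hairpin transcript by DROSHA and DICER, and the arm that is retained guides an Argonaute protein to mRNAs through its seed, bases 2 to 8 from the 5′ end. miR-29 is known as a regulator of the DNA methyltransferases Dnmt3a and Dnmt3b, which set new cytosine methylation, and of collagens and other matrix proteins made by fibroblasts. Its level is known to rise in many cell types as they mature. In male germ cells, DNA methylation is laid down anew before birth and then maintained through the divisions of spermatogonia.

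The mature sequences show which members can be read apart and which share a seed. The seed is in capitals, and the sequences are those of RefSeq (GRCm38.p6), in which 908 of the 1096 miRNAs, including all 7 members, were matched by name.
miR-29a-3p: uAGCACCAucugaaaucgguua
miR-29b-3p: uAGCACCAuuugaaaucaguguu
miR-29c-3p: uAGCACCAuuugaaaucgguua
miR-29a-5p: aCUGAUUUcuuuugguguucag
miR-29b-1-5p: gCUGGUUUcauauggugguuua
miR-29b-2-5p: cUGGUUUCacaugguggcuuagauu
miR-29c-5p: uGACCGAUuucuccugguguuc
The 3p members share the seed AGCACCA, and no other of the 908 matched miRNAs has it. Counted from the 5′ end of miR-29a-3p, miR-29c-3p differs by C10U alone, so that 21 of 22 bases are identical. miR-29b-3p differs from miR-29a-3p by C10U, G18A, U21G and A22U over the same 22 bases and is 1 base longer. It differs from miR-29c-3p by G18A, U21G and A22U. Since reads were mapped without mismatch, a read that covers position 10 separates miR-29a-3p from miR-29c-3p, and an error at that base would move a read from one to the other. The last 6 bases of miR-29b-3p, AGUGUU, are known from work in other cells as a signal that directs this miRNA to the nucleus, and they end 2 of the 908 matched miRNAs (0.220%). The 5p members share no seed with the 3p members, and no pair of them has the same seed. The GC content of the members was between 34.8% and 50%, and the median of the matched miRNAs was 50%.

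miR-29b-3p is made from 2 hairpins, and their sequences show why its reads cannot be assigned to one of them. The mature arms are in capitals, the 5p arm first.
Mir29b-1: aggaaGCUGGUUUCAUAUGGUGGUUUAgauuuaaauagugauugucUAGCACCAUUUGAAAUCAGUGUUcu
Mir29b-2: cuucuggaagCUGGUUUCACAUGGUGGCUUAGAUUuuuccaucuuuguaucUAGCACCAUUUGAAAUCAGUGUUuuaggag
The 3p arms are identical in the 2 hairpins, whereas the 5p arms differ and are listed apart as miR-29b-1-5p and miR-29b-2-5p. On GRCm38, Mir29b-1 lies at chr6:31063023-31063093 and Mir29a at chr6:31062660-31062747, both on the minus strand and 275 bp apart. Mir29b-2 lies at chr1:195037040-195037120 and Mir29c at chr1:195037547-195037634, both on the plus strand and 426 bp apart. In the GENCODE vM21 annotation, Mir29b-2 and Mir29c lie whole within 1 exon of the noncoding transcript A330023F24Rik-204 (chr1:195033823-195037904) on the same strand, and within an exon of Cd46-203 on the opposite strand. Mir29b-1 overlaps the noncoding gene Gm27019 by 2 bp, and Mir29a overlaps no other annotated gene.

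**Figure D1:**
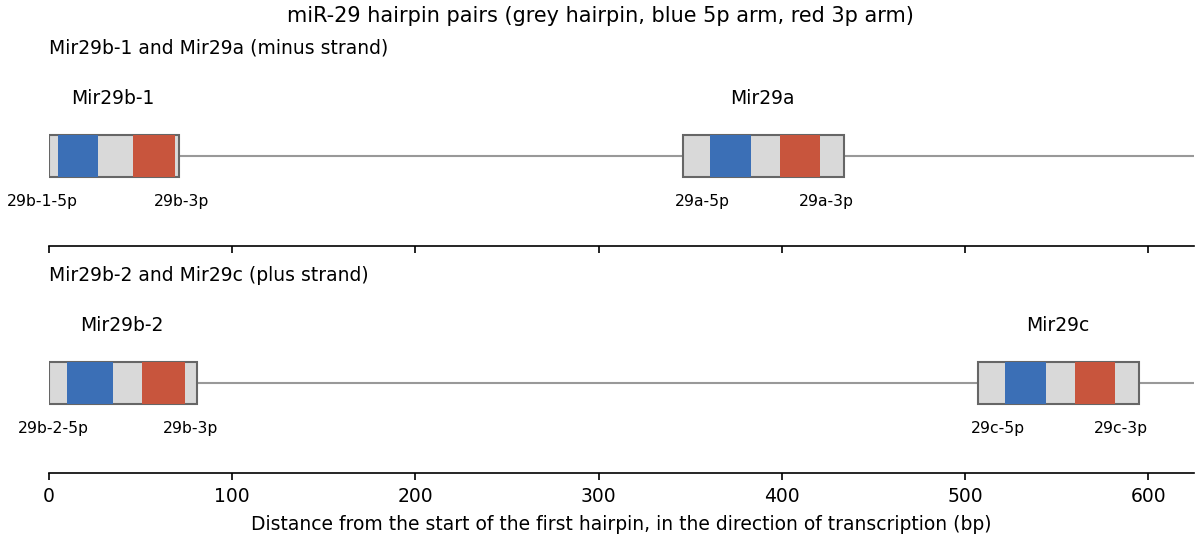
The 2 pairs of miR-29 hairpins, drawn to scale by distance in bp from the start of the first hairpin in the direction of transcription, with grey boxes for hairpins, blue for 5p arms and red for 3p arms. Each pair holds 1 hairpin of miR-29b first and then miR-29a or miR-29c, with gaps of 275 bp and 426 bp, and the span of a pair is 434 bp or 595 bp.

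A few of the seed matches in the 3′ UTRs of known miR-29 targets are shown because the family was chosen for these genes. The capitals mark TGGTGCT, which pairs with bases 2 to 8 of the 3p members, and each stretch is the first match in the longest annotated 3′ UTR, read on the strand of the gene from GRCm38.
Dnmt3a, chr12:3908557-3908579 (+): atcccgacttcataaTGGTGCTt
Dnmt3b, chr2:153686612-153686634 (+): tagagtagcccggcaTGGTGCTc
Tet1, chr10:62812209-62812231 (-): tagaaccatagagtcTGGTGCTt
Col1a1, chr11:94952523-94952545 (+): gtgggaaggaatttcTGGTGCTa
Col3a1, chr1:45348967-45348989 (+): ttcaaaatgtctcaaTGGTGCTa
Eln, chr5:134703736-134703758 (-): cgacctcatcaacgtTGGTGCTa
Of the genes that write or remove cytosine methylation, 6 of 8 held TGGTGCT in the 3′ UTR. Dnmt3a, a de novo methyltransferase, held it 5 times, and Dnmt3b, the other de novo methyltransferase, held it 1 time. Tet1, Tet2 and Tet3, which oxidise 5-methylcytosine, held 7, 5 and 8 matches, and Tdg, the glycosylase that removes the oxidised bases, held 3. No match was present in the windows of Dnmt1, the maintenance methyltransferase, or of Dnmt3l, a cofactor without catalytic activity, whose 3′ UTRs are 312 and 273 bp long. Of the collagen genes, 10 of 11 held the letters, with Col5a1 at 4 and Col5a3 at 3 matches, 1 or 2 in the others and none in Col1a2. Of the other listed targets, the matrix genes Eln, Fbn1 and Lox held 3, 2 and 3 matches and Sparc held none, the survival factor Mcl1 held 1, the cell cycle kinase Cdk6 held 3 and the receptor Pdgfra held 2. In all, 22 of the 26 listed genes (84.6%) held TGGTGCT. Among all 21020 protein-coding genes with a 3′ UTR, 2755 (13.1%) held TGGTGCT on the sense strand. Longer UTRs give more room for a match, and among genes whose 3′ UTR is within 10% of the same length the share was 47.7% for Dnmt3a, 13.2% for Dnmt3b, 13.4% for Col1a1 and 10.1% for Col3a1. It was 48.3% for Tet1, 39.9% for Tet3 and 70.6% for Cdk6, and over the 26 listed genes it ran from 3.28% to 70.6%. These genes were listed because they are known targets, so their counts describe where the letters lie and are not evidence of targeting. The mRNA levels of these genes were not analysed here.

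The libraries differed in depth. The deposited TPM values are reads per 1000000 of a library total, which was 10518277 reads for control SPCs and 3194363 for Mov10 knockdown SPCs (ratio 0.304). Reads counted on miRNAs were 9628835 and 2794593, and 1058 and 833 miRNAs had at least 1 read. A read was worth 0.0951 TPM in the control and 0.313 TPM in the knockdown, and a floor of 3 reads, used as the lower limit of detection, stood at 0.285 and 0.939 TPM. All intervals below are 95% intervals for counting error. They do not cover variation between cultures, and reads without molecular identifiers are not independent molecules.

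The miR-29 family was higher in the Mov10 knockdown library by TPM and made up a larger share of its miRNA reads. The sum of the 7 members came to 29008 control reads and 14218 knockdown reads, or 2758 and 4451 TPM. This was 0.301% of the reads on miRNAs in the control (Wilson interval 0.298 to 0.305%) and 0.509% in the knockdown (0.500 to 0.517%). The log2 fold change, taken throughout as log2(TPM + 0.1) of the knockdown less that of the control, was 0.69 for the sum (0.66 to 0.72, exact interval of the ratio of reads given the library totals). In such bulk libraries, more or fewer cells of a type cannot be told apart from more or less RNA per cell. The pseudocount of 0.1 understates changes of members with few reads. The family's reads were 0.490 times those in the control, so the direction turns to a log2 fold change of -1.03 when the control total is used for both libraries.

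miR-29a-3p held nearly all of the family's reads. It was read 26872 times in the control library and 13169 times in the knockdown library, which is 2555 and 4123 TPM, where 8161 reads would have kept the control's TPM. Its rank by reads among the 1096 miRNAs went from 46 to 36, and its log2 fold change was 0.69 (0.66 to 0.72). miR-29a-3p alone was 92.6% of the family's reads in each library (Wilson intervals 92.3 to 92.9% and 92.2 to 93.0%).

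The other 3p members had far fewer reads and moved by a like amount. miR-29b-3p, the form with the nuclear signal and 2 source hairpins, was read 1270 times in control SPCs and 620 times after knockdown, or 121 and 194 TPM. The log2 fold change of miR-29b-3p was 0.68 (0.54 to 0.82, adjusted p = 3.8e-20, exact binomial test of the reads given the library totals, Benjamini-Hochberg over all 1096 miRNAs). miR-29c-3p, which differs from miR-29a-3p by C10U, had 722 and 359 reads, or 68.6 and 112 TPM. The log2 fold change of miR-29c-3p was 0.71 (0.52 to 0.90, adjusted p = 7.6e-13, exact binomial test). The binomial test sets 1 library against the other and cannot speak for the conditions. For miR-29a-3p its p-value was below the smallest number that could be stored. The interval of each 3p member lay above 0 with the deposited TPM, and each value turned negative with the control total for both libraries, to -1.03 for miR-29a-3p, -1.03 for miR-29b-3p and -1.01 for miR-29c-3p.

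**Figure D2:**
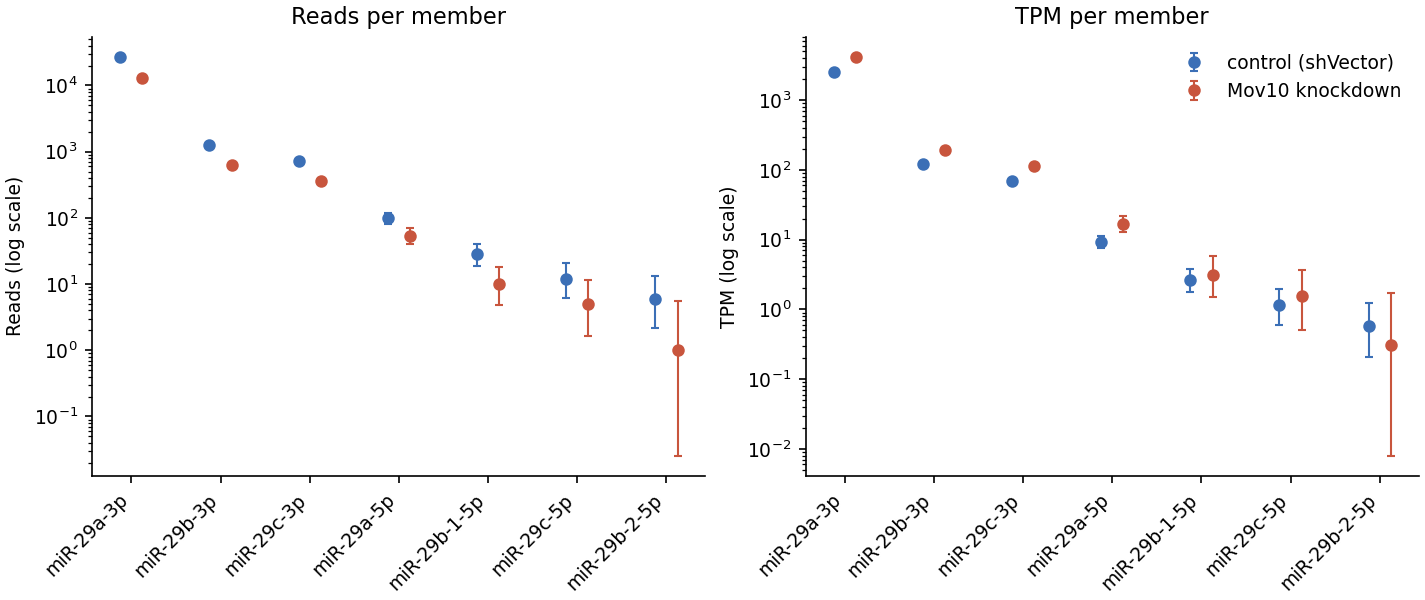
Reads (left) and TPM (right) of the 7 members on log axes, with the control library in blue and the Mov10 knockdown library in red, 1 library per group, and bars for the exact 95% Poisson interval, which is smaller than the point for the 3p members. All 7 members had fewer reads in the knockdown, whose library total was 0.304 times that of the control, and 6 of the 7 had more TPM, a direction that turns when both libraries are divided by the control total.

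The 5p members, the arms that are mostly discarded, ranged from 1 to 98 reads. miR-29a-5p was counted 98 times in control SPCs and 54 times after knockdown, or 9.32 and 16.9 TPM, with a log2 fold change of 0.85 (0.35 to 1.35, adjusted p = 0.0028, exact binomial test). It turned to -0.85 with the control total for both libraries. miR-29b-1-5p had 28 and 10 reads, or 2.66 and 3.13 TPM, where 8.50 knockdown reads would have kept the control's TPM. The log2 fold change of miR-29b-1-5p was 0.23 (-0.97 to 1.32), and it turned to -1.39 (-2.69 to -0.40, adjusted p = 0.0099, exact binomial test) with the control total for both libraries. That scaling takes the libraries as equally deep, so its value and p hold the difference in depth and are not a result about this member. Under every other scaling the interval of miR-29b-1-5p included 0. miR-29c-5p had 12 and 5 reads, or 1.14 and 1.57 TPM, with a log2 fold change of 0.42 (-1.40 to 2.06, adjusted p = 0.90, exact binomial test), which turned to -1.11 with the control total for both libraries. miR-29b-2-5p had 6 control reads and 1 knockdown read, or 0.570 and 0.313 TPM. The knockdown value lies below the floor of 3 reads, so its log2 ratio of -0.70 (-6.39 to 2.18) depends on the pseudocount, being -0.85 with 0.01 TPM and -0.26 with 1 TPM, and a difference was not detectable at this depth. Summed, the 5p members had 144 and 70 reads, or 13.7 and 21.9 TPM, giving a log2 fold change of 0.67 (0.25 to 1.1), which turned to -1.03 with the control total for both libraries.

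In order of level, the members ran miR-29a-3p, miR-29b-3p, miR-29c-3p, miR-29a-5p, miR-29b-1-5p, miR-29c-5p and miR-29b-2-5p, and the order was the same in both libraries. Exact Poisson intervals of neighbours in this order overlapped between miR-29b-1-5p (18.6 to 40.5 reads in the control) and miR-29c-5p (6.20 to 21.0 reads), and between miR-29c-5p and miR-29b-2-5p (2.20 to 13.1 reads). The same neighbours overlapped in the knockdown, where miR-29b-1-5p spanned 4.80 to 18.4 reads, miR-29c-5p 1.62 to 11.7 and miR-29b-2-5p 0.0253 to 5.57. The other neighbours lay apart in both libraries. Reads of different sequences are ligated and amplified unequally, so a ratio of reads between members is not a ratio of molecules.

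Ratios of reads within a library do not depend on how the libraries are scaled, and none of the 7 ratios tested differed between the libraries beyond counting error. miR-29a-3p had 21.2 times the reads of miR-29b-3p in the control and 21.2 times in the knockdown, an odds ratio of 1.00 (0.909 to 1.11, p = 0.96, two-sided Fisher's exact test). It had 37.2 and 36.7 times the reads of miR-29c-3p, an odds ratio of 0.986 (0.866 to 1.12, p = 0.82, Fisher's exact test). The ratio of miR-29b-3p to miR-29c-3p was 1.76 and 1.73, an odds ratio of 0.982 (0.835 to 1.15, p = 0.84, Fisher's exact test). With Benjamini-Hochberg adjustment over the 7 ratios, every adjusted p was 1.

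The arm ratios were measured less precisely, because the 5p arms had few reads. The 5p arm of miR-29a took 0.363% of its hairpin's reads in the control (Wilson interval 0.298 to 0.443%) and 0.408% in the knockdown (0.313 to 0.532%). The ratio of 3p to 5p for miR-29a was 274 and 244, an odds ratio of 0.889 (0.631 to 1.26, p = 0.49, Fisher's exact test). For miR-29c, the 5p arm took 1.63% (0.938 to 2.84%) and 1.37% (0.588 to 3.17%), and the odds ratio of 3p to 5p was 1.19 (0.388 to 4.36). For miR-29b, both 5p arms summed took 2.61% (1.87 to 3.62%) and 1.74% (0.976 to 3.09%), and the odds ratio of 3p to 5p was 1.51 (0.740 to 3.32, p = 0.26, Fisher's exact test). The ratio of miR-29b-1-5p to miR-29b-2-5p, the only arms that tell the 2 miR-29b hairpins apart, was 28 to 6 in control reads and 10 to 1 in knockdown reads, with an odds ratio of 2.11 and an interval from 0.212 to 108. The share of the miR-29b-1 hairpin could thus not be compared at this depth.

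**Figure D3:**
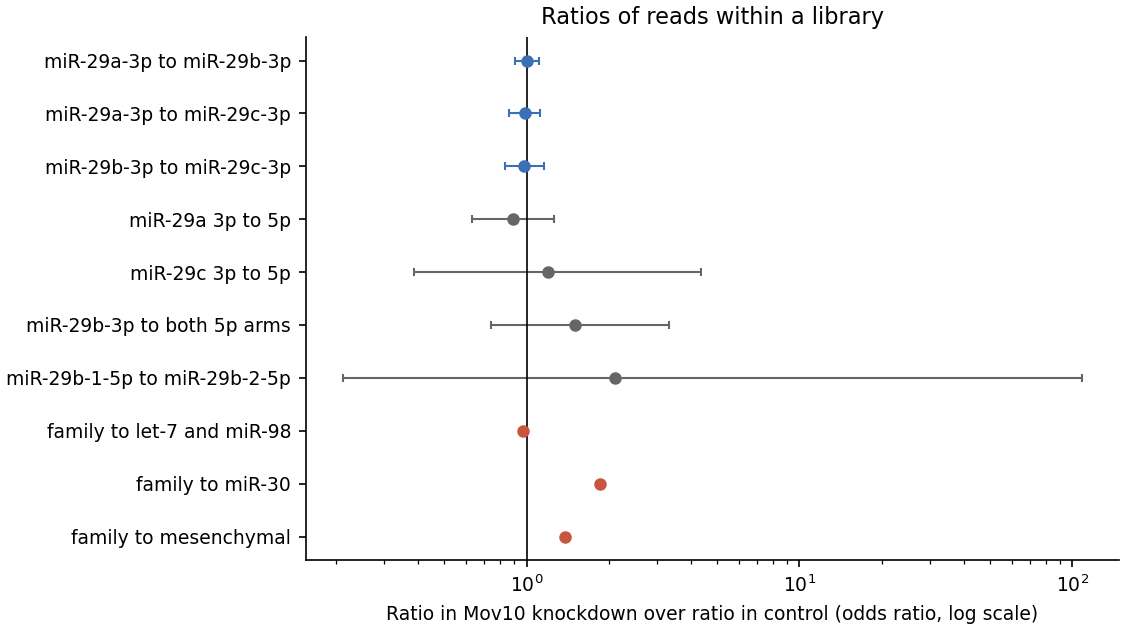
Odds ratios of reads (ratio in the Mov10 knockdown library over ratio in the control library, log axis) with 95% intervals for 3 ratios between 3p members (blue), 4 ratios between arms (grey) and the family against 3 comparator families (red, intervals smaller than the points). All 7 ratios within the family have intervals that include 1, whereas the family's ratio to miR-30 is 1.86 and that to the mesenchymal miRNAs 1.38.

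Against all miRNAs, the miR-29 family stood in the upper part of the distribution. Of the 607 miRNAs above 1.5 TPM in the higher library, 97 (16%) were raised over 1.5-fold by TPM in the knockdown and 253 (41.7%) were reduced. Of the 7 members, 6 were above this minimum, 4 of them (miR-29a-3p, miR-29b-3p, miR-29c-3p and miR-29a-5p) were raised over 1.5-fold and 0 were reduced. The raised members had 1.61, 1.61, 1.64 and 1.81 times the control's TPM, close to the threshold of 1.5. In the binomial test, 117 of the 1096 miRNAs (10.7%) were higher in the knockdown at an adjusted p under 0.05 and 235 (21.4%) were lower, and the same 4 members were among the higher. Many of the 1096 miRNAs had too few reads to be called. The 3p members share a seed and close sequence and the arms share hairpins, so these 4 are not independent of each other.

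Over the 607 miRNAs the median was a log2 fold change of -0.37, and over the 6 members above the minimum it was 0.69. The minimum itself partly sets which members enter this median. miR-29c-5p passed only by its knockdown value (1.14 control TPM, 1.57 knockdown TPM). miR-29b-2-5p, the member with a negative log2 fold change, did not pass. Of the 607, 79 had a larger log2 fold change than miR-29a-3p, 81 than miR-29b-3p, 75 than miR-29c-3p and 58 than miR-29a-5p. Since miRNAs with few reads scatter more, the 208 miRNAs with at least 100 TPM in the control were also taken alone. Their median was -0.28 and 25 of them (12%) were raised over 1.5-fold, 18 with a larger log2 fold change than miR-29a-3p and 19 than miR-29b-3p. miR-29c-3p was below 100 TPM in the control and is not among them.

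**Figure D4:**
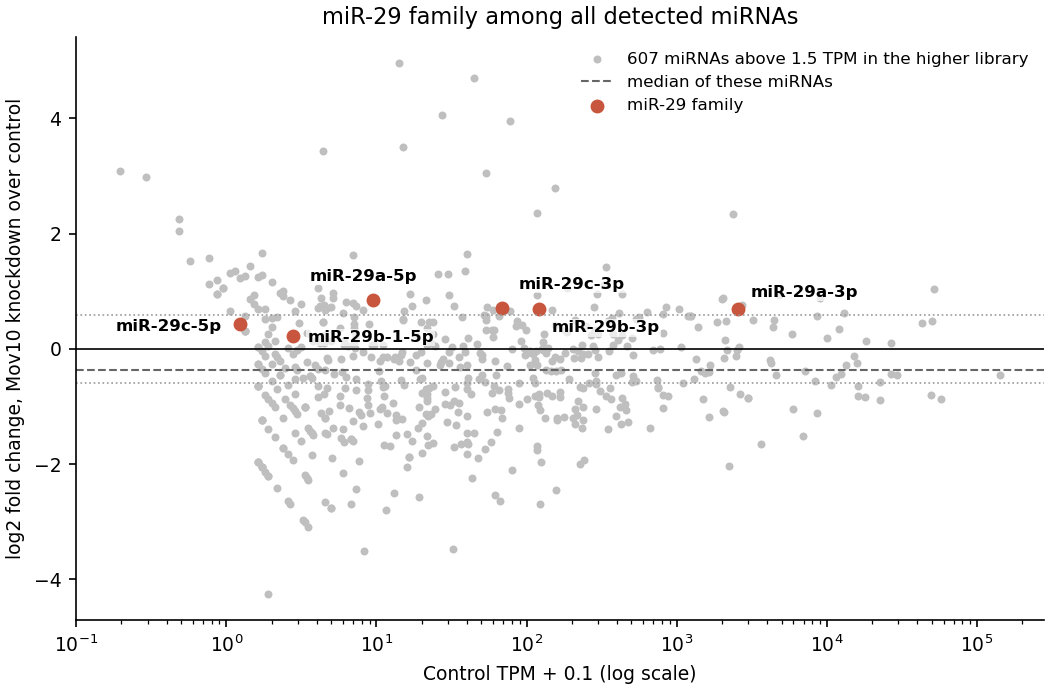
log2 fold change of TPM + 0.1 (Mov10 knockdown over control) against control TPM + 0.1 (log axis) for the 607 miRNAs above 1.5 TPM in the higher library (grey), with the 6 miR-29 members among them in red, the median of -0.37 as a dashed line and 1.5-fold changes as dotted lines. With the deposited TPM the 6 members lie above 0, between 0.23 and 0.85, and all 6 turn negative when both libraries are divided by the control total. That all 6 lie above 0 is partly set by the filter. miR-29c-5p passes it by its knockdown TPM alone, and miR-29b-2-5p, which is lower in the knockdown, does not pass.

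The size of the change depended on the scaling. The log2 fold change of the family's sum was 0.76 with reads on miRNAs as the total, 0.91 with edgeR's TMM factors and 0.94 after centring on the median of those miRNAs that exceeded 1.5 TPM in each library. With the control total for both libraries it was -1.03, and the whole table shifted by the log2 ratio of the totals, -1.72. Under these 4 scalings the median of the 607 miRNAs was -0.30, -0.15, -0.12 and -2.0. The family's sum lay 1.06 above the median on the log2 scale with the deposited TPM and under the first 3 of these scalings, and 0.97 above it with the control total. The 4 members with an adjusted p under 0.05 were higher under every scaling but the last, under which 5 members were lower and 0 higher (exact binomial test). The last scaling takes the libraries as equally deep, so the difference in depth enters its test of every miRNA. The deposited values alone do not tell which total matches equal numbers of cells.

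**Figure D5:**
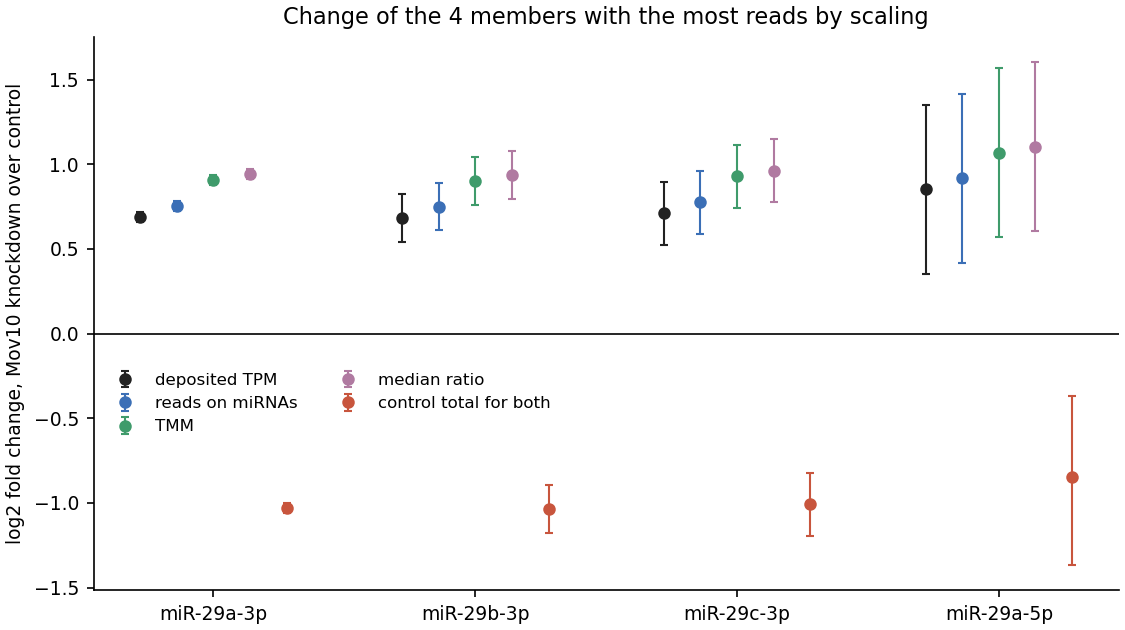
log2 fold change (Mov10 knockdown over control) of the 4 members with the most reads under the deposited TPM and 4 other scalings, with exact 95% intervals for counting error. All 4 are above 0 under 4 of the scalings and between -1.03 and -0.85 when both libraries are divided by the control total.

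Reads of miR-29 went up relative to the summed reads of miR-30 and down slightly relative to the summed reads of let-7. The let-7 and miR-98 family, which is known to rise with differentiation, went from 231179 to 116686 reads, a log2 fold change of 0.73 that turned to -0.99 with the control total for both libraries. With the deposited TPM, 11 of its 22 members above the minimum were raised over 1.5-fold, against 16% of all miRNAs above it, and 0 were reduced. The ratio of miR-29 to the summed let-7 and miR-98 reads changed by an odds ratio of 0.971 (0.951 to 0.992), a small decrease beyond counting error. Members of let-7 moved unequally, with log2 fold changes of 0.58 for let-7f-5p, which had the most reads, and 0.94 for let-7i-5p. That of miR-29a-3p was 0.69, so the direction against a single let-7 member depends on the member. Without let-7f-5p in the sum, the odds ratio was 0.912. The miR-30 family, which is abundant in many differentiated cells, went from 724791 to 191306 reads, a log2 fold change of -0.20 (-1.92 with the control total for both libraries). Of its 11 members, 0 were raised over 1.5-fold, against that same 16%, and 3 were reduced, against 41.7%. The ratio of miR-29 to miR-30 reads was 1.86 times that in the control (1.82 to 1.90). The odds ratios, unlike the fold changes and the counts, do not depend on the scaling of the libraries.

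The miRNAs nearest to miR-29a-3p in both libraries, by Euclidean distance over the 2 log2(TPM + 0.1) values among miRNAs with at least 100 control reads, were let-7a-5p, miR-221-3p and miR-31-5p. let-7a-5p, at a distance of 0.175, had 2705 and 4589 TPM in control and knockdown. miR-221-3p, known from undifferentiated spermatogonia, had 2037 and 3758 TPM at a distance of 0.353, and miR-31-5p had 3230 and 4571 TPM at 0.370. The nearest to miR-29b-3p was miR-181a-1-3p (117 and 224 TPM, distance 0.212), and the nearest to miR-29c-3p was miR-153-3p (77.6 and 123 TPM, distance 0.219). With only 2 libraries, such likeness rests on 2 values per miRNA.

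The summed TPM of fibroblast markers and of stem cell markers also differed between the libraries, in opposite directions, but the single fibroblast markers did not all move one way. Since the feeder layer is of fibroblasts, miRNAs typical of fibroblasts and of stem cells were read in both libraries. The 5 fibroblast miRNAs (miR-143-3p, miR-145a-5p, miR-199a-3p, miR-199a-5p and miR-214-3p) summed to 25430 control TPM and 29151 knockdown TPM, and none was at 0. Their log2 fold changes ran from -0.42 for miR-214-3p to 0.51 for miR-199a-3p, with 3 of the 5 higher and 1 lower at an adjusted p under 0.05 (exact binomial test), against 10.7% and 21.4% of all miRNAs. The other marker with a negative log2 fold change was miR-145a-5p, at -0.20. Most of the fibroblast sum was miR-143-3p, with 18362 control TPM and 20113 knockdown TPM and a log2 fold change of 0.13. Of all arms of these fibroblast miRNAs together with miR-199b, 10 in all, the log2 fold change was 0.22, and the ratio of miR-29 to their reads was 1.38 times that in the control (1.35 to 1.41). The listed stem cell markers were 5 selected 3p arms of the miR-290 cluster, whose miRNAs mark pluripotent and cultured germline stem cells (miR-291a-3p, miR-292a-3p, miR-293-3p, miR-294-3p and miR-295-3p). They summed to 939 control TPM and 626 knockdown TPM, again with none at 0. All 5 were lower at an adjusted p under 0.05 (exact binomial test), against 21.4% of all miRNAs, with log2 fold changes from -1.20 for miR-294-3p to -0.37 for miR-292a-3p, the last at the same -0.37 as the median of the 607 miRNAs. Over all 17 members of the cluster in the table, both arms of miR-290 to miR-295, a set added after seeing the data, the sum was 2154 control TPM and 1330 knockdown TPM. Of these 17, 11 were lower and 0 higher at an adjusted p under 0.05 (exact binomial test), and 3 had log2 fold changes above 0, namely 0.07 for miR-292b-5p, 0.07 for miR-292b-3p and 0.04 for miR-294-5p. The shares of all miRNAs given here include many with too few reads to be called, whereas each listed marker had at least 646 control reads. The part of either cell type in the level of the miR-29 family was not tested. In reads, the fibroblast sum went from 267483 to 93120 and so turns negative with the control total for both libraries, as the sum of the miR-29 family does. Under that scaling the median of the 607 miRNAs was -2.0, so this likeness holds the difference in depth and is not a result about either set.

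The family's change did not rest on miR-29a-3p alone. The sum without it had 2136 control and 1049 knockdown reads, for a log2 fold change of 0.69 (0.59 to 0.80), equal to the value with it at this precision and likewise negative with the control total for both libraries, and the 3p arms alone also gave 0.69. This remainder includes miR-29c-3p, to which an error at position 10 could move reads of miR-29a-3p. miR-29b-3p, which differs from miR-29a-3p at 4 bases, gave 0.68 by itself with the deposited TPM. A difference between the 2 loci was not detectable at this depth, as miR-29a-3p from chromosome 6 against miR-29c-3p from chromosome 1 gave the odds ratio of 0.986 stated above (0.866 to 1.12). Reads moved by such an error would also make this ratio less able to show a difference. By seed, AGCACCA stood at rank 30 of 774 seeds in the control and 26 in the knockdown, with 2744 and 4429 TPM summed over the 3 members that carry it.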

How the data were processed

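The authors isolated small RNAs of 15–50 nt, prepared libraries with the TruSeq Small RNA kit and sequenced them on a HiSeq2500. Reads were checked with KASAVA, filtered for rRNA and trimmed with Fastx, and mapped without mismatch to miRBase with CLC Genomics Workbench. The submitters' processing notes also name Cufflinks 2.1.1. The authors deposited read counts and TPM for 1096 mature miRNAs. Counts divided by TPM gave 1 constant per library, so the deposited TPM are counts per 1000000 reads of a library total without length correction. How reads shared by hairpins were assigned is not given in the sources used here.

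With 1 library per group, edgeR's quasi-likelihood test could not be fitted, and edgeR 4.0.16 (R 4.3.3) gave only TMM factors. An exact conditional binomial test (two-sided) and Fisher's exact test were run on reads (scipy 1.17.1, Python 3.11.15), with Benjamini-Hochberg adjustment. The binomial script was tested on simulated data. Intervals are exact for fold changes, odds ratios within the family and single counts, Wald for odds ratios against comparators and Wilson for shares. Fold calls used TPM without a pseudocount, with over 1.5-fold change and over 1.5 TPM in the higher library. The named miRNAs were every member, the 3 nearest to miR-29a-3p and the 1 nearest to each other member with at least 100 control reads, those that share its seed, and the marker lists. The members, lists and comparators were chosen with earlier results of these data known. Sequences came from RefSeq (GRCm38.p6), and the 3′ UTR of each gene was the longest in GENCODE vM21 (GRCm38). Scaling, pseudocount, filter, arm and comparator alternatives were computed.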

Additional observations from a re-analysis of the deposited data

How the results depend on the processing

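No paired analysis was possible because 1 library stood for each group, and for the same reason no replicate could be left out. The family's log2 fold change of 0.69 was 0.76 with reads on miRNAs as the total, 0.91 with TMM and 0.94 with the median ratio, and it turned to -1.03 with the control total for both libraries. That last scaling also turned miR-29a-3p (-1.03), miR-29b-3p (-1.03), miR-29c-3p (-1.01), miR-29a-5p (-0.85), miR-29b-1-5p (-1.39) and miR-29c-5p (-1.11), by its construction, since every read then counts the same. Over all miRNAs it gave 607 lower and 10 higher in the binomial test, in place of 235 and 117, and 561 reduced and 10 raised over 1.5-fold, in place of 253 and 97. The counts of reduced and raised miRNAs were 163 and 43 at 2-fold, 579 and 208 with no minimum, and 157 and 53 with a minimum of 10 TPM. The count raised was 149 with TMM and 147 with the median ratio, each of which raises the knockdown-to-control ratio of every miRNA by 1 factor. Every alternative for the ratios within the family and for the comparators kept the direction and the side of the threshold, as did the pseudocounts of 0.01 and 1 TPM for each member. Summing all members of the miR-290 cluster in place of the 5 listed, an alternative chosen after seeing the data, moved the log2 fold change of these markers from -0.58 to -0.70. The depth limits the 5p members of miR-29b and miR-29c, with at most 10 reads each in the knockdown.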
